A study of Homo sapiens with 8 samples.

Results

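Pluripotency and self-renewal factors were followed here, a set of 8 genes: SOX2, POU5F1 (OCT4), NANOG, KLF4, MYC, LIN28B, BMI1 and SALL4. Their probes were the noncontrol probes of a whole human genome array whose RefSeq accession maps to one of these symbols. The arrays held 15 such probes among 41000, and 6 probes of 5 genes were bright enough to be tested, among 24373 tested probes. RNA of 2 populations derived from H460, an established human non-small-cell lung cancer line, was compared with RNA of H460 cells on 8 dual-color Agilent arrays. CSCs (H460C) were spheres grown without adhesion in serum-free DMEM/F12 medium with N2 supplement, EGF and bFGF. Cisplatin-resistant cells (H460R) were the survivors of 0.5 μg/mL of cisplatin given for 72 h, which were then kept without the drug in RPMI with 10% serum, the medium of the H460 cells. There were 2 RNA samples of each population, and a dye-swapped pair of arrays was made from every sample.

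Several features of the design bear on every value below. CSCs were defined by their growth as spheres, so medium, loss of adhesion and population cannot be told apart. The arrays of a population were all on 1 slide, and an effect of the slide cannot be told apart from that of the population. The labels name a single H460 RNA, which both populations share as reference, and a ratio tested against 0 leaves out the spread of that control. Across probes, the difference between the 2 H460C samples in one dye did not recur in the other (correlation -0.0096 over 24373 probes, against 0.26 for H460R), although single probes such as the bright one of POU5F1 were higher in replicate 2 in both dyes. For H460C the mean is given as for 1 sample, with no SD, whereas the tests took 2 samples as planned. Nothing in the labels says that the samples came from separate cultures, so p-values measure only the spread between these samples, which may be technical. In bulk RNA, fewer cells of a type and less RNA per cell cannot be told apart. From 22834 to 28499 probes were well above background per array channel. Of 7 epithelial markers, 5 were well above background on all 8 H460 channels. CDH1 (E-cadherin) was above background on 4 of 4 H460C arrays and on none of the H460R or H460 channels. PTPRC, which defines leukocytes, was above background on no channel of any population. Of 11 markers of other cell types, 4 were above background on all 8 H460 channels, and these were CD68, COL3A1, DCN and LUM.

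POU5F1, SOX2 and NANOG are transcription factors that form the core circuit of embryonic stem cells, in which they bind each other's regulatory regions. KLF4 and MYC complete, with POU5F1 and SOX2, the set of factors used to reprogram somatic cells. SALL4 is a zinc finger factor that maintains this circuit, LIN28B is an RNA-binding protein that blocks the maturation of let-7 microRNAs, and BMI1 is a subunit of Polycomb repressive complex 1 that sustains self-renewal of adult stem cells. POU5F1 and NANOG are silent in most adult tissues, whereas KLF4, MYC and BMI1 are widely expressed.

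In these cells KLF4, MYC, BMI1 and 1 of 4 POU5F1 probes were clearly detected in all populations, and SALL4 was detected near the limit. SOX2 and NANOG were not above background on most channels, and LIN28B was above background on none. KLF4 RNA was at 62.2% of H460 in H460C and at 54.7% in H460R. The detected POU5F1 probe was 1.32-fold above H460 in H460C and 1.87-fold in H460R. SALL4 was 1.06-fold and 1.26-fold. MYC was at 89.0% and 94.7% of H460, and the first BMI1 probe was 1.05-fold and 1.01-fold. Rank Products, the test the study used, called 0 of the 5 tested genes in either population at an FDR of 0.05. It called 0.488% of all tested probes higher and 0.480% lower in H460C, and 0.468% higher and 0.439% lower in H460R. At an unadjusted p under 0.05, KLF4 was lower in both populations and POU5F1 was higher in H460R. That cut was passed by 9.31% of all tested probes as higher and 9.33% as lower in H460C, and by 9.09% and 9.19% in H460R. The direct comparison of H460C with H460R used limma, which called 28.2% of the tested probes higher and 27.9% lower in H460C. It called 2 of the 5 genes, POU5F1 and SALL4, and both were lower in H460C than in H460R.

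**Figure D1:**
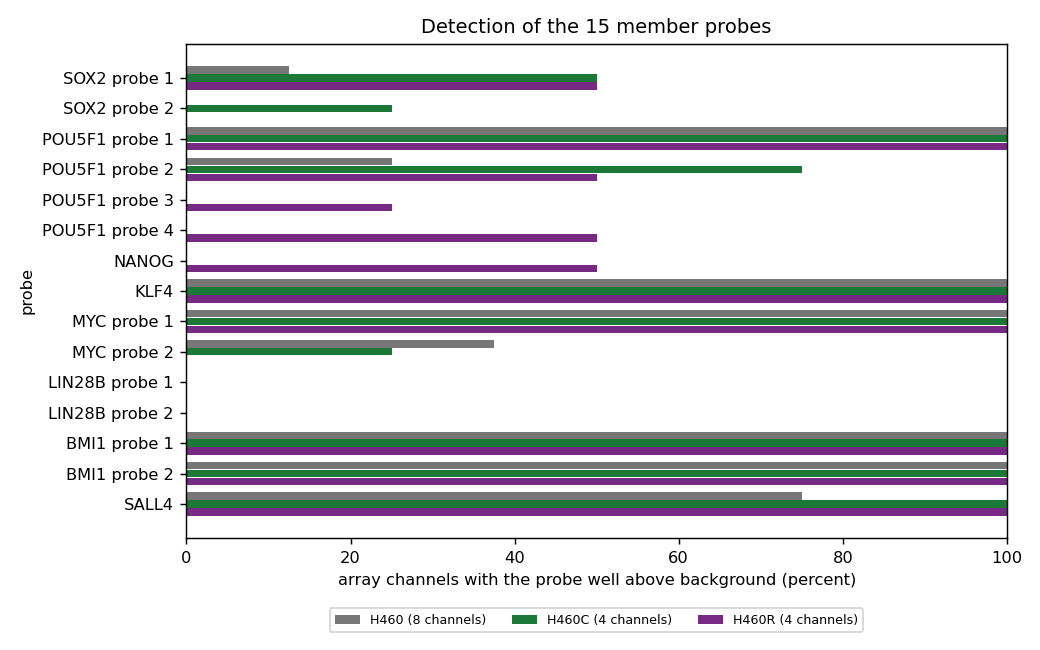
Share of array channels, in percent, on which each of the 15 member probes was well above background, for H460 (8 channels), H460C (4 channels) and H460R (4 channels). KLF4, MYC probe 1, POU5F1 probe 1 and both BMI1 probes reach 100% in all populations, whereas both LIN28B probes have no bar.

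Detection was read from the mark that the scanner software gives to spots well above background. LIN28B was above background on 0 of 16 array channels with either of its probes (A_32_P224566 and A_24_P769529). Its spot intensities were 41 to 51 scanner units in Cy3 and 61 to 74 in Cy5, below the 95th percentile of the negative-control spots on any array, which was at least 56.7 in Cy3 and 79 in Cy5. The log2 ratios of its probes over H460 lay between -0.16 and 0.12, and a ratio of background to background has no reading as a change.

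NANOG (A_23_P204640) was above background on none of the 8 H460 channels and on none of the 4 H460C arrays. It was above background on 2 of 4 H460R arrays, both with H460R in Cy5. On those arrays the intensity was 111 in H460R replicate 1 and 131 in replicate 2, against 73 to 96 on the 4 arrays with H460 in Cy5. With H460R in Cy3 the intensities were 52 and 55, against 52 to 56 for H460 in Cy3. The signal was thus present in 1 dye and not in the other, in both H460R samples. The log2 ratios of H460R over H460 were 0.36 and 0.55 in Cy5, and -0.038 and -0.033 in Cy3. The mean over the 4 H460R arrays was 1.16-fold that of H460, with 2 of 4 arrays above background, and no lower bound is given. The log ratio of the scanner software, which subtracts the background, was 2.42 and 2.67 on the log2 scale with H460R in Cy5 and 0 in Cy3. NANOG has near-identical pseudogene copies, which these probes may not separate.

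SOX2 had 2 probes. The first (A_24_P379969) was above background on 2 of 4 H460C arrays, 2 of 4 H460R arrays and 1 of 8 H460 channels. Its log2 ratios were 0.062, -0.0018, 0.21 and 0.20 in H460C and 0.17, 0.19, -0.038 and -0.040 in H460R. The values of both populations overlapped, and in each population 1 sample was near 0. The second (A_23_P401055) was above background on 1 of 4 H460C arrays and on no other channel, and its H460C ratios were 0.020 to 0.31. The mean H460C signal was 1.09-fold the higher, on each array, of the signal of H460 and the lowest signal well above background. As only 1 of 4 H460C arrays was above background with this probe, that value is not a lower bound. With the log ratio of the scanner software, both probes were above 0 on all 4 H460C arrays, at 0.23 to 1.46 for the first and 0.34 to 1.77 for the second. In H460R the same ratio was -0.24 to 1.17 and 0 to 0.52. H460C was above background only in Cy5 with either SOX2 probe, and on 0 arrays in Cy3. On the H460C slide H460 was above background on 0 channels with both probes, so the size of the H460C ratios cannot be read. Neither SOX2 probe passed the filter, and neither was tested.

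**Figure D2:**
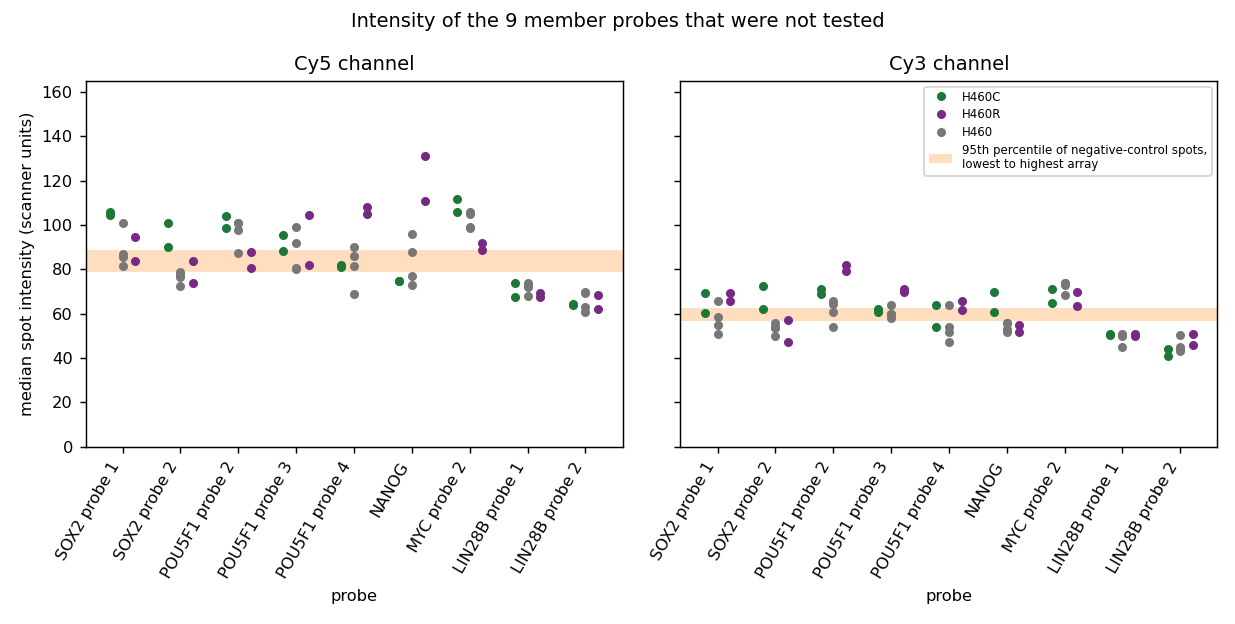
Median spot intensity in scanner units of the 9 member probes that were not tested, in the Cy5 channel on the left and in the Cy3 channel on the right, with 1 point per array. The band spans the lowest to the highest 95th percentile of 153 negative-control spots over the 8 arrays (79 to 88.9 in Cy5 and 56.7 to 62.7 in Cy3), and the H460R points of NANOG at 111 and 131 stand above it only in Cy5.

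POU5F1 was represented by 4 probes with the same accession, and only A_23_P59138 was above background on all channels of the 3 populations. Its log2 ratios over H460 were 0.56 and -0.0036 in H460C replicate 1, with H460C in Cy3 and in Cy5, and 0.76 and 0.29 in replicate 2. In H460R they were 1.05 and 0.89 in replicate 1 and 0.94 and 0.74 in replicate 2. All H460R arrays but the Cy5 array of replicate 2 were above every H460C array, and 7 of 8 arrays were above 0. The mean log2 ratio was 0.40 in H460C and 0.90 ± 0.088 (SD, n = 2) in H460R. Rank Products gave an FDR of 0.833 in H460C and of 0.321 in H460R. H460C was 0.50 lower than H460R on the log2 scale (SE 0.099, 95% interval -0.75 to -0.26, limma adjusted p = 0.00782), or 1.42-fold. The difference was -0.34 on the arrays with the studied cells in Cy3 and -0.67 in Cy5. Without H460R replicate 1 it was -0.44, with an adjusted p of 0.0600, in a fit where the lone H460R sample is assumed to vary like H460C. The authors' processed table gave -0.040 to 0.60 in H460C and 0.64 to 1.00 in H460R for this probe.

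The other POU5F1 probes were dim and were not tested. A_32_P132563 was above background on 3 of 4 H460C, 2 of 4 H460R and 2 of 8 H460 channels, with mean log2 ratios of 0.030 and 0.048. A_24_P144601 was above background on 1 of 4 H460R arrays, and its means were 0.028 and 0.022. A_24_P214841 was above background on 2 of 4 H460R arrays, both in Cy5, with means of 0.035 and 0.10. The offset of 50 draws the ratio of a dim probe toward 0. The log ratio of the scanner software was 0.73 to 2.12 on the 4 H460R arrays and -0.84 to 0.36 on the H460C arrays for A_24_P214841, -0.12 to 0.96 and 0 to 1.09 for A_24_P144601, and -0.44 to 0.55 and -0.57 to 0.46 for A_32_P132563. By that ratio only, A_24_P214841 was above 0 on every H460R array. With the ratios used for the tests it was at -0.028 to 0.23 in H460R. H460 was above background on 0 of 8 channels with this probe, and H460R on 0 arrays in Cy3. The size of its ratios therefore cannot be read as a change. POU5F1 also has near-identical pseudogenes and the retrogene POU5F1B, and the files hold no probe sequences with which the target of each probe could be checked.

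KLF4 (A_23_P32233) was well above background on every channel, with intensities of 757 to 4938. Its log2 ratios were -0.61 and -0.76 in H460C replicate 1, with H460C in Cy3 and in Cy5, and -0.56 and -0.81 in replicate 2. In H460R they were -0.64 and -0.97 in replicate 1 and -0.74 and -1.14 in replicate 2. All 8 arrays were below 0, and the ratio was lower in Cy5 than in Cy3 in each of the 4 samples. The mean was -0.68 in H460C and -0.87 ± 0.094 (SD, n = 2) in H460R, the largest ratios in size of any tested member in H460C and, in H460R, second to POU5F1. These ratios lay at the 6.89th percentile of all tested probes in H460C and at the 2.16th in H460R. Rank Products gave an FDR of 0.445 and of 0.193. The authors' processed table gave -0.85 to -0.59 in H460C and -1.19 to -0.70 in H460R. H460C was 0.19 above H460R (SE 0.067, 95% interval 0.020 to 0.35, limma adjusted p = 0.0586), which did not pass the threshold. That interval covers differences of up to 0.35 on the log2 scale between the populations.

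The promoter of KLF4 is shown because KLF4 had the same sign on every array. The stretch holds the 250 bases before the start site on the minus strand, at chr9:107489770-107490019 of GRCh38.p14, from RefSeq, with capitals on GC boxes (GGGCGG, on either strand) and on the E-box (CACGTG), which is the motif bound by MYC with its partner MAX.
KLF4: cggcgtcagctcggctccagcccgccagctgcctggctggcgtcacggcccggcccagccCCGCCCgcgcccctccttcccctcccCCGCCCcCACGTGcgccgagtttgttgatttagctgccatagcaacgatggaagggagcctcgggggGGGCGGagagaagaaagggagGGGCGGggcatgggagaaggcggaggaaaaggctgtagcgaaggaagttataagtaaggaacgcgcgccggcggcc
It held 4 GC boxes and 1 E-box, which did not overlap. Of 35116 promoter stretches of this length, 42.6% held a GC box and 6.34% an E-box. MYC was not looked up, and stretches of 5 of the 8 members were found. That of BMI1 held 6 GC boxes and 1 E-box, that of LIN28B 2 GC boxes, that of SOX2 1 and that of NANOG none, and their GC content was 76.8%, 73.6%, 68.8% and 47.6%, against 69.2% for KLF4 and a median of 58% over all stretches. The octamer motif of POU factors (ATGCAAAT, on either strand) was in none of the 5 and in 1.63% of all stretches. These matches describe the letters of the stretch only.

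MYC, a basic helix-loop-helix factor that drives growth and ribosome production, was read from A_23_P215956, a probe printed on 10 spots, of which 8 to 10 per array remained after 6 outlier spots were left out over all arrays. The mean log2 ratios were -0.15 and -0.14 in H460C replicate 1 and -0.19 and -0.19 in replicate 2. In H460R they were -0.11 and -0.24 in replicate 1 and 0.084 and -0.045 in replicate 2. The SD over the spots of 1 array was 0.017 to 0.053. Intensities of the spots on 1 array differed by up to 4.55-fold, whereas their ratios did not. The mean over arrays was -0.17 in H460C and -0.079 ± 0.14 (SD, n = 2) in H460R, with an FDR of 1 in Rank Products in both. H460C was 0.088 below H460R (SE 0.081, 95% interval -0.29 to 0.11, limma adjusted p = 0.395). That interval leaves room for a MYC difference of up to 0.29 on the log2 scale. The second MYC probe (A_24_P38363) was above background on 3 of 8 H460 channels, 1 of 4 H460C and 0 of 4 H460R arrays, and its ratios were below 0 on all 8 arrays, from -0.17 to -0.031 in H460C and from -0.32 to -0.087 in H460R. The authors' processed table gave -0.37 to -0.19 and -0.30 to -0.019 for the bright probe.

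SALL4 (A_23_P109072) was above background on all H460C and H460R arrays and on 6 of 8 H460 channels. The missing channels were both H460 in Cy3 on the H460R slide. After loess and Aquantile, the mean log2 level of H460 was 7.41 on the H460C slide and 7.20 on the H460R slide. The levels of H460C and H460R themselves were close, at 7.49 and 7.54, and a slide effect on these levels was not tested. The H460 level of other members moved between the H460C and H460R slides as well. It was 8.63 and 7.63 for the first BMI1 probe, 7.39 and 7.74 for the bright POU5F1 probe, and 13.83 and 13.64 for MYC. The log2 ratios of SALL4 were 0.11, 0.098, -0.027 and 0.14 in H460C and 0.36, 0.42, 0.30 and 0.29 in H460R. Every H460R array was above every H460C array. The mean was 0.082 in H460C and 0.34 ± 0.067 (SD, n = 2) in H460R, with FDRs of 1 and 0.886. H460C was 0.26 lower than H460R (SE 0.062, 95% interval -0.41 to -0.10, limma adjusted p = 0.0167), or 1.20-fold. The call was lost without H460C replicate 2 (adjusted p = 0.0897) and without H460R replicate 1 (adjusted p = 0.0570), again with 1 population at 1 sample. With median centring in place of loess the difference was -0.14 (adjusted p = 0.575), and with the log ratio of the scanner software it was -0.61 (adjusted p = 0.0527).

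BMI1 had 2 probes that were above background everywhere. The first (A_23_P314115) gave log2 ratios of -0.17 and -0.16 with H460C in Cy3 and 0.31 and 0.31 in Cy5. In H460R it gave -0.13 and -0.19 in Cy3 and 0.080 and 0.32 in Cy5. The second (A_24_P303989) gave -0.21 and -0.060 in Cy3 and 0.27 and 0.38 in Cy5 in H460C, and -0.051 and 0.089 against 0.25 and 0.24 in H460R. The sign followed the dye in 7 of the 8 pairs of arrays, so only means over both dyes can be read. Those means were 0.074 and 0.095 in H460C and 0.021 ± 0.067 and 0.13 ± 0.046 (SD, n = 2) in H460R. The differences between the populations were 0.053 (95% interval -0.099 to 0.20, limma adjusted p = 0.494) and -0.037 (95% interval -0.21 to 0.14, adjusted p = 0.675).

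**Figure D3:**
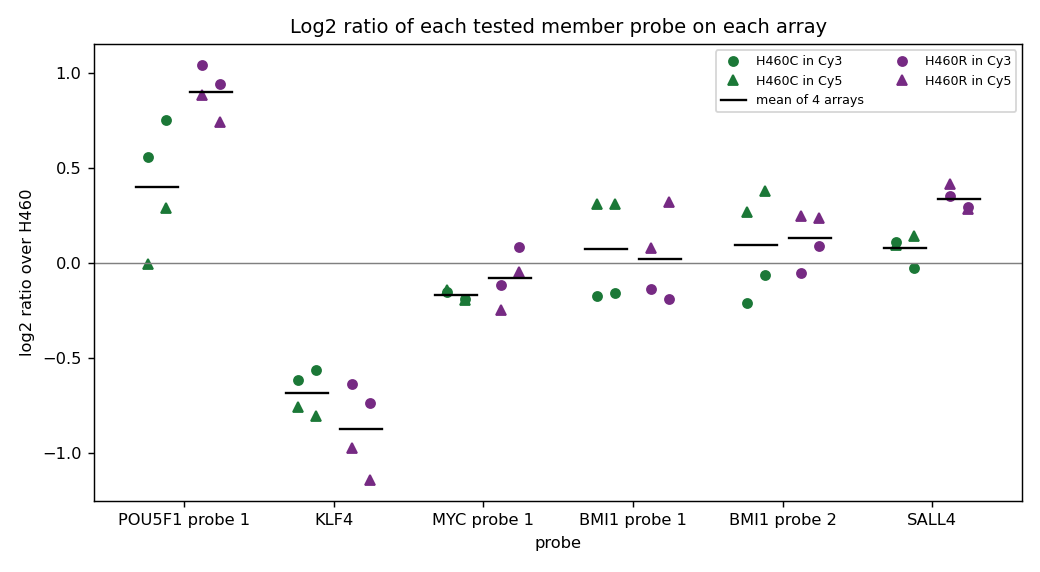
Log2 ratio over H460 of the 6 tested member probes on each array, with circles for the studied cells in Cy3, triangles in Cy5 and a line at the mean of the 4 arrays. KLF4 lies below 0 on all 8 arrays, POU5F1 probe 1 lies highest in H460R with a mean of 0.90, and the BMI1 probes split by dye around 0.

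The limma test against 0, an alternative that the study did not use, called KLF4 lower in both populations (adjusted p = 1.03e-04 in H460C and 6.22e-05 in H460R) and POU5F1 higher in both (0.00342 and 1.76e-04). It also called MYC lower in H460C (0.0420) and SALL4 higher in H460R (0.00118). It therefore called 3 of the 5 genes in each population, which has to be read against the share of all probes it called. In H460C this was 37.0% higher and 34.5% lower, and in H460R 36.6% higher and 32.4% lower. The 2 of 5 genes called lower in the direct comparison are read in the same way against the 27.9% of all probes called lower there.

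**Figure D4:**
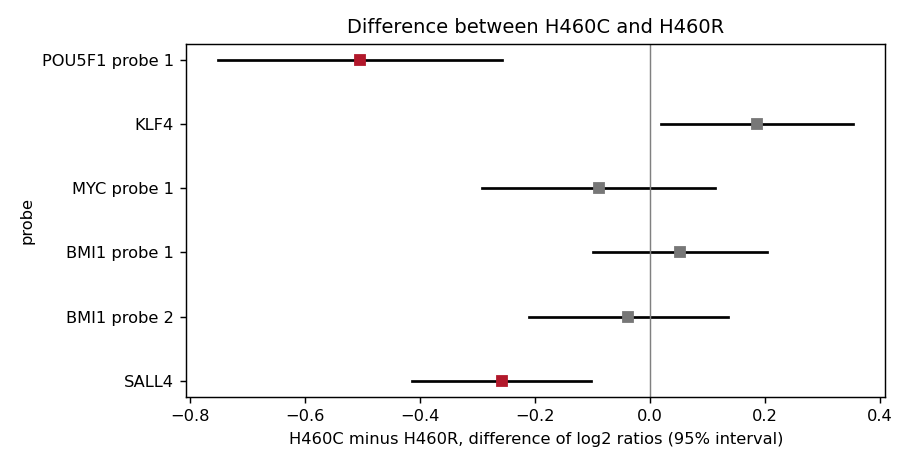
Difference of the mean log2 ratios, H460C minus H460R, for each tested member probe, with its 95% interval from limma as a line. The red squares, POU5F1 probe 1 at -0.50 and SALL4 at -0.26, passed an adjusted p of 0.05, and the grey squares did not.

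Genes that act with these factors were followed in 6 lists. Of 41 further genes of the pluripotency network on the array, 19 were tested, and PRDM14, ZFP42, TDGF1 and LIN28A were among those that were not. Rank Products called none of the 19 in either population, against 6 higher and 1 lower in H460C and 1 higher in H460R at an unadjusted p under 0.05, the cut passed by 9.09% to 9.33% of all tested probes in each direction. The median log2 ratio was 0.16 in H460C and 0.095 in H460R, beside -0.0012 and 0.011 over all tested genes. In the direct comparison 7 were higher and 2 lower in H460C, beside 28.2% and 27.9% of all tested probes. With detection required in every population, 15 genes remained, of which 8 were higher and 2 lower. TERT, the catalytic subunit of telomerase, was at 1.77 in H460C and -0.16 ± 0.022 (SD, n = 2) in H460R, a difference of 1.93 (SE 0.13, limma adjusted p = 2.03e-04). DNMT3B, a de novo DNA methyltransferase that is abundant in embryonic stem cells, was at 1.46 and 0.21 ± 0.15 (difference 1.25, adjusted p = 7.39e-04). SMAD3, which carries the TGF-beta signal to the nucleus, was at -1.23 and 0.52 ± 0.016 (difference -1.75, adjusted p = 7.18e-05). KLF5 was at -0.31 and 0.29, with a difference of -0.60 (adjusted p = 7.83e-04). REST, a repressor of neuronal genes, was the highest of the list in H460R, and its ratios of 1.22 and 1.24 ± 0.039 differed by only 0.026 (adjusted p = 0.756). ZSCAN10 was at 0.48 and 0.58, KLF2 at -0.25 and -0.30, and TRIM28 at 0.11 and -0.42.

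Of 49 paralogs in the SOX, POU, KLF and SALL families, 26 were tested and Rank Products called none. At an unadjusted p under 0.05, 3 were higher and 4 lower in H460C, and 2 higher and 5 lower in H460R, beside 9.09% to 9.33% of all probes in each direction. The medians were -0.014 and -0.094. In the direct comparison 8 of the 26 were higher and 6 lower in H460C, near the 28.2% and 27.9% of all tested probes. With detection required in every population, 21 paralogs remained, of which 6 were higher and 6 lower. The direction of a gene that passed only through 1 population can be set by the filter. SOX8 was at 1.64 in H460C and -0.56 ± 0.026 in H460R (difference 2.20, limma adjusted p = 4.89e-05). KLF9, a paralog of KLF4 that responds to glucocorticoids, was at -1.79 and 0.21 ± 0.065 (difference -1.999, adjusted p = 4.58e-05). KLF13 was at -0.013 and -1.03 ± 0.0075 (difference 1.02, adjusted p = 1.09e-04), and KLF11 at -0.015 and -0.71. KLF10 was at 0.71 and 1.00. SOX9, a factor of lung progenitors, was at -0.85 and -0.55 (difference -0.31, adjusted p = 0.0518). SALL1 was at -0.077 and 0.54 (difference -0.62, adjusted p = 0.00265), SOX3 at 0.078 and 0.70, and POU2F1 at 0.76 and 0.43. Within the KLF family the direction thus depended on the member and on the population.

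The Polycomb list holds other subunits of Polycomb repressive complex 1, paralogs that can take the place of BMI1 in it, and the subunits of Polycomb repressive complex 2. Of its 26 genes on the array 24 were tested, and Rank Products called none, against 3 higher and 2 lower in H460C and 0 higher and 3 lower in H460R at an unadjusted p under 0.05 (9.09% to 9.33% of all probes in each direction). The medians were 0.023 and -0.082, and in the direct comparison 9 were higher and 4 lower in H460C, beside 28.2% and 27.9% of all tested probes. EZH2, the histone H3 lysine methyltransferase of Polycomb repressive complex 2, was at 0.68 in H460C and -0.44 ± 0.15 in H460R (difference 1.12, limma adjusted p = 2.85e-04). Its paralog EZH1 was at -0.66 and -0.16 ± 0.034 (difference -0.50, adjusted p = 0.00227). CBX7, a chromobox subunit that binds the methylated histone, was at -0.47 and 0.30 ± 0.070 (difference -0.77, adjusted p = 4.41e-04). MTF2 was at 1.12 and 0.60, PCGF3, a paralog of BMI1, at 0.89 and 0.25, SUZ12 at 0.38 and 0.41, and PHC2 at -0.37 and -0.73.

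MYC acts as a dimer with MAX and competes with the MXD proteins and MNT for it. Of 17 genes of this network 16 were tested. Rank Products called 1 of them higher in H460C, beside 0.488% of all tested probes. This was MYCBP, a MYC-binding protein, at a log2 ratio of 2.39 in H460C (FDR 0.0357). In H460R it stood at 1.01 ± 0.062 (SD, n = 2), with an FDR of 0.264. The call of MYCBP was lost with the log ratio of the scanner software and when the probes of a gene were averaged. An unadjusted Rank Products p under 0.05 was reached by 1 gene as higher and 0 as lower in H460C. For H460R these numbers were 2 and 2. That cut was passed by 9.09% to 9.33% of all tested probes in each direction. The medians were 0.092 and 0.10, and 5 of the 16 genes were higher and 5 lower in H460C in the direct comparison, near the 28.2% and 27.9% of all tested probes. MXI1, an antagonist of MYC, was at 0.67 and -0.53 ± 0.088 (difference 1.20, limma adjusted p = 1.21e-04). MNT was at -0.21 and 0.27 (difference -0.47, adjusted p = 0.00841). MYCBP2, an E3 ubiquitin ligase, was at 0.67 and 1.13 (difference -0.46, adjusted p = 0.00136), and MLX at -0.59 and -0.60.

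MYC itself showed no called difference between the populations. The list of its known targets was chosen with earlier results of these data known, so its counts only describe these genes. The activity of MYC was not tested. Of 26 tested targets, which act mostly in ribosome production and nucleotide synthesis, 19 were higher and 1 lower in H460C than in H460R, beside 28.2% and 27.9% of all tested probes. The median log2 ratio was 0.30 in H460C and -0.20 in H460R, and the median difference was 0.41, beside 0.012 over all tested genes. The number of targets called higher was 17 to 22 in the alternatives, except with a minimum log2 difference of 1, which called 1. Rank Products called none of the 26 against H460, and 4 were higher in H460C and 2 higher and 5 lower in H460R at an unadjusted p under 0.05, the cut passed by 9.09% to 9.33% of all probes. FBL, the methyltransferase of ribosomal RNA, was at 0.37 in H460C and -0.95 ± 0.15 (SD, n = 2) in H460R (difference 1.32, limma adjusted p = 1.76e-04). NOP16, a nucleolar protein, was at 1.18 and 0.29 ± 0.10 (difference 0.89, adjusted p = 3.76e-04). PA2G4 was at 1.11 and 0.77 ± 0.056 (difference 0.33, adjusted p = 0.00516). CAD, the first enzyme of pyrimidine synthesis, was at -0.30 and -0.68 (difference 0.39, adjusted p = 0.00801). EIF4A1 was at -0.41 and -0.36. The 1 target called lower in H460C was TFRC, the transferrin receptor, at 0.10 and 1.01 ± 0.11 (difference -0.91, adjusted p = 3.22e-04). TERT, given above, belongs to this list as well. Epithelial markers had a median of 0.45 in H460C and -0.21 in H460R over 6 tested genes, of which 5 were higher and 1 lower in H460C. CDH1 is 1 of the 5 and passed the filter only through H460C, so its direction was set by the filter. The part of these markers in the result was not tested.

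**Figure D5:**
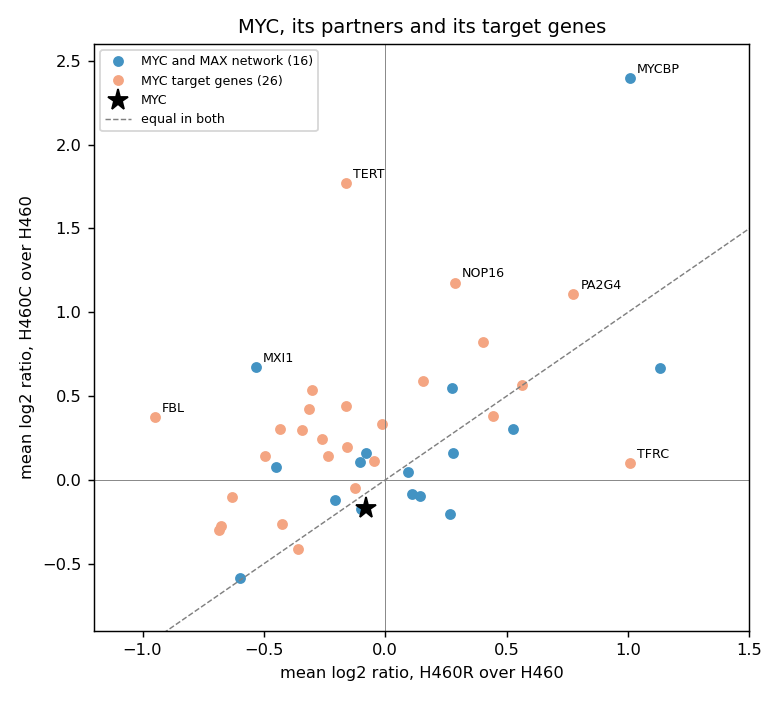
Mean log2 ratio over H460 in H460R (horizontal axis) and in H460C (vertical axis) for MYC (star), 16 genes of its network and 26 target genes, with a dashed line where both are equal. Most targets lie above the line, whereas MYC lies close to it at -0.079 and -0.17.

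The last list followed the let-7 pathway, on which LIN28B acts, although LIN28B itself was not detected. It mixes genes of microRNA processing and turnover with known targets of let-7. Its counts and medians do not separate these kinds. Of 26 genes on the array 24 were tested, and Rank Products called none, against 7 higher in H460C and 4 higher and 4 lower in H460R at an unadjusted p under 0.05, passed by 9.09% to 9.33% of all probes in each direction. HMGA2, a classic target of let-7, and LIN28A were not tested. The medians were 0.24 in H460C and 0.21 in H460R, beside -0.0012 and 0.011 over all tested genes. In the direct comparison 10 genes were higher and 5 lower in H460C, beside 28.2% and 27.9% of all tested probes. CDC25A, a phosphatase of the cell cycle, was at 1.62 and 0.39 ± 0.094 (difference 1.23, limma adjusted p = 3.41e-04). ARID3B was at 1.33 and -0.089 ± 0.059 (difference 1.42, adjusted p = 9.04e-05). CDK6 was at -0.52 and 0.26 (difference -0.78, adjusted p = 7.88e-04) and IRS2 at -0.50 and 0.25 (difference -0.75, adjusted p = 3.13e-04). DGCR8, a subunit of the microprocessor, was at 1.20 and 1.23, CCND1 at 0.73 and 1.14, and CDC34 at -0.17 and -0.62.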

How the data were processed

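Gene expression was measured in H460C, H460R and H460 cells on 8 dual-color arrays, with 2 RNA samples per population and 2 dye-swapped arrays per sample. Spots were read by the authors with Agilent's Feature Extraction software (version 10.1.1.1). Median intensities, deposited for each spot and its local background, carry no normalization. The log10 ratio of red over green, deposited after the background subtraction and dye normalization of that software, was used in an alternative. On 1 array (H460C replicate 1, H460C in Cy3) the deposited log10 ratios had lost their decimal point, were read as a score and divided by 10 to the power of 9. In the authors' processed table, values are log2 ratios with H460 as denominator, already turned on swapped arrays, with column medians of -0.02 to -0.01. Their correlation with the scanner ratios was 0.94 to 0.96, and their background correction and normalization are not given in the sources used here. Columns without a sample numbered 0. The deposited marks for outliers, saturation and detection were kept.

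Background was corrected with normexp (offset 50) on all spots. Control spots were dropped, outlier spots were set to missing, and loess was applied to the log2 ratios of each array, which were then turned to studied cells over H460, averaged over spots and over each dye-swap pair. The filter required, in all channels of 1 or more populations, a share of at least 0.5 of the probe's spots well above background (26046 probes), and 24373 had ratios on all 8 arrays. Of 25868 probes with a RefSeq accession, 23958 matched a symbol in the RefSeq table of GRCh38.p14, which was used for names. Genes with several probes were read from the brightest. A bound compares the group above background with the higher of the dim signal and the lowest signal well above background on each array. It was taken after loess and Aquantile, and is open to dye bias and to arrays of that group at background. Where the dim signal was the higher on all arrays, the mean ratio is given instead or left out.

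Each population was tested against H460 with Rank Products (exact distribution of the product of 2 ranks, one-sided in each direction, Benjamini-Hochberg FDR of 0.05). H460C and H460R were compared with limma on 4 ratios (two-sided, 2 residual and 3.51 prior degrees of freedom). The planned design left the fit against 0 to an alternative. The software was limma (version 3.58.1) with the data.table package (version 1.17.8) in R (version 4.3.3). Both tests were checked on simulated data, where at a log2 change of 1 Rank Products recovered 100% and limma at least 77.9%. Few probes changed in that simulation, whereas limma called a large share here, so it cannot show what Rank Products misses in these data. The number of arrays limits the precision. The lists hold genes of general knowledge, and the members and lists were chosen with earlier results of these data known. Genes named from a list are those called by Rank Products, the 2 highest and 2 lowest ratios in each population, and the 2 largest called differences in each direction. Of these, 2 genes are not reported here. HMGA2, LIN28A, PRDM14, ZFP42 and TDGF1 were named in addition, as genes not tested.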

Additional observations from a re-analysis of the deposited data

Results flagged for a closer look

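The 2 populations differed in POU5F1 by a log2 difference of -0.50 (H460C minus H460R, limma adjusted p = 0.00782, H460C lower in both samples), and this rests on 1 of 4 probes. They differed in SALL4 by -0.26 (limma adjusted p = 0.0167, H460C lower in both samples), at a signal close to the background in H460 cells. The log2 levels of SALL4 in H460C and H460R themselves were 7.49 and 7.54, and those of H460 on the same slides were 7.41 and 7.20.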

How the results depend on the processing

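The count of members called in H460C against H460, 0 with Rank Products, was 3 with limma against 0, 2 with the H460C samples averaged into 1, and 2 when either H460C replicate was left out. In H460R it was 3 with limma against 0 and 3 to 4 when a replicate was left out, where MYC joined without replicate 2. Where 1 sample of a population was left, it is assumed to vary like the other population, whose samples give all of the spread. These alternatives use limma in place of Rank Products, and under the others the count stayed at 0. Limma against 0 called 37.0% of all tested probes higher and 34.5% lower in H460C, and 36.6% and 32.4% in H460R. For the fits with replicates left out or averaged, the share of all probes called is not given. Their counts therefore cannot be read as an excess of members. Of the 2 members that differed between H460C and H460R, 1 remained with the log ratio of the scanner software, median centring, the Cy5 arrays of the studied cells alone, or the H460C samples averaged into 1, and this was POU5F1. None remained with a minimum log2 difference of 1. Leaving out 1 replicate gave 1 to 2, and without H460R replicate 1 the call was KLF4 and not POU5F1. KLF4 was called as well without background subtraction, with the authors' processed table and with the stricter filter, which does not test SALL4. Without a filter NANOG was called too, with values at background. With the replicate number as a block 3 were called, KLF4 (adjusted p = 0.0401) beside POU5F1 and SALL4. Same-numbered samples deviated together with a correlation of 0.23 over 24373 probes, but with only 2 numbers, and no label ties them. POU5F1 and KLF4 kept their direction under every alternative run, from 0.14 to 0.66 and -0.78 to -0.53 in H460C and from 0.76 to 1.26 and -1.06 to -0.69 in H460R. BMI1 changed sign with the studied cells in Cy3 (-0.17 in H460C, -0.16 in H460R and -0.0046 for the difference), and in H460R also with the scanner software (-6.84e-04), the authors' processed table (-0.025) and without replicate 2 (-0.027, against 0.068 without replicate 1). MYC changed sign in H460R without replicate 1 (0.020, against -0.18 without replicate 2), and its difference without H460R replicate 2 (0.010, against -0.19 without replicate 1). The cause was not tested. Signal over background limits SOX2, NANOG, LIN28B and the dim POU5F1 and MYC probes.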
